A study of Drosophila melanogaster with 4 samples.

Results

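The NK homeobox cluster at cytological position 93DE lies on the right arm of the third chromosome (3R) of Drosophila melanogaster and holds 6 homeobox genes, tin, bap, lbl, lbe, C15 and slou. H3K27me3, trimethylation of histone H3 at lysine 27, was mapped here by ChIP-seq (chromatin immunoprecipitation followed by sequencing), and the data are the lists of enriched regions that the authors deposited. All regions touching 3R from 17160000 to 17440000 (FlyBase release 5 of the genome) were taken as regions of the cluster. They numbered 3 of 4865 in replicate 1, 7 of 10330 in replicate 2 and 5 of 10507 in the list given for the whole series. On 3R as a whole the lists held 1376, 2575 and 2503 regions.

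The material was nuclei of heads from wild-type adults of the Oregon-R strain (mixed adult stage), raised in population cages on a 22-day cycle. The heads were separated by sieving, fixed with formaldehyde and sonicated, and the chromatin was precipitated with Abcam antibody lot 3. There were 2 ChIP libraries and 2 inputs, each input serving 1 ChIP library. Whether separate fly collections gave the replicates is not in the labels, so their spread may be technical, and all values are for 1 strain, 1 tissue and 1 antibody lot. Read numbers cannot be had from region lists, so the depth of each library is unknown. A head holds many cell types, and a smaller share of marked cells cannot be told apart from less of the mark in each cell. No expression was measured, so the labelled tissue could not be checked against marker genes.

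H3K27me3 is written by the Polycomb repressive complex PRC2, bound by the Polycomb subunit of the complex PRC1, and found in wide domains over developmental regulators in cells where these are silent. NK homeobox genes encode transcription factors that assign fates in the mesoderm and other embryonic tissues, and their clustering in the genome is shared by distant animal groups. In the fly, tin (tinman) is needed for the heart and visceral mesoderm, bap (bagpipe) for the visceral muscle of the midgut, and the paired genes lbl and lbe (ladybird late and early) for identities of muscle and heart cells. C15 (clawless), a relative of the vertebrate Tlx genes, acts in the tip of the leg, and slou (slouch) sets the identity of muscle founder cells.

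The mark covered the cluster in 3 wide domains, and every one of the 6 homeobox genes lay inside a domain. In replicate 1 the first domain ran from 17203146 to 17308331 (105 kb) and held tin, bap, lbl and lbe. The second, with C15, ran from 17313607 to 17346253 (32.6 kb), and the third, with slou, from 17353695 to 17396470 (42.8 kb). Replicate 2 gave the same layout, with C15 in a region from 17313900 to 17346007 and slou in a region from 17353933 to 17396276. Its first domain was called as 2 regions, from 17203747 to 17232871 (29.1 kb) and from 17235373 to 17307499 (72.1 kb), which parted tin and bap from lbl and lbe. The whole-series list again had 3 wide regions, from 17203231 to 17308009, 17313722 to 17346192 and 17353760 to 17396370. From the first to the last domain edge the stretch measured 193.3 kb in replicate 1 and 192.5 kb in replicate 2, of which 93.4% and 92.0% lay in regions. Outside it, replicate 1 had no region in the window, replicate 2 had 3702 bp and the whole-series list 1263 bp.

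**Figure D1:**
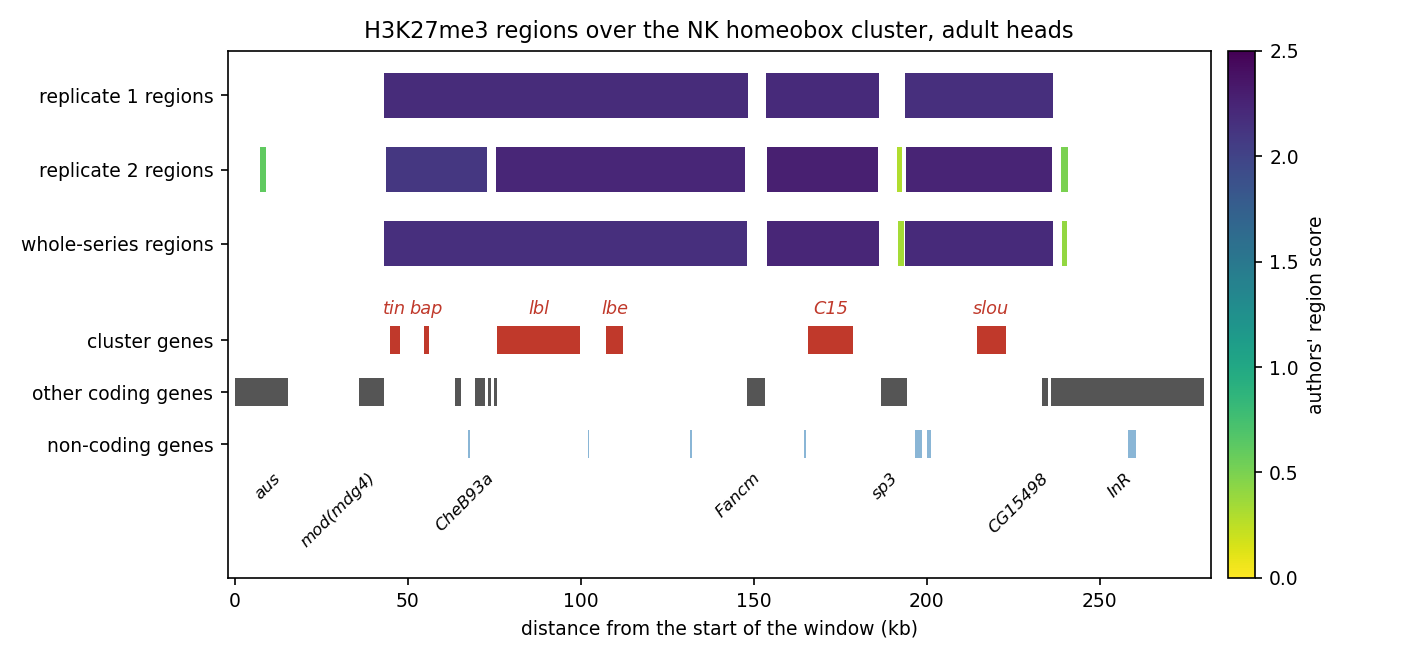
Map of the window, with the distance from its start in kb on the horizontal axis, regions of the 3 lists coloured by the authors' score, and genes in 3 rows below (cluster genes in red, other coding genes in grey, non-coding genes in blue). All 6 cluster genes lie under dark, high-scoring regions, and the gaps between the domains lie over Fancm and sp3.

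Gene positions came from a table of genome release 6 and were placed on release 5 by a constant offset of 4174278 bp for 3R. The table keeps release 5 coordinates among the synonyms of 4 genes of the arm, though for intervals of another length than the table's entries. The ends of lncRNA:CR44946 were placed 212 and 3 bp from such coordinates and those of lncRNA:CR14310 92 and 756 bp. For aus, with an interval of 1.89 kb and an entry of 31.3 kb, the distances were 33 and 29442 bp. For mod(mdg4), with an interval of 0.289 kb and an entry of 7.30 kb, they were 19008 and 26020 bp. The offset was thus checked at few places, and short distances between genes and regions rest on it. The table gives no strand, so a gene was counted as marked at its start only where both of its ends lay in regions.

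Both ends of all 6 cluster genes lay in regions of both replicates, as did those of 8.59% of the 3387 protein-coding genes placed on 3R. Each of the 6 gene bodies was covered over 100% of its length in replicate 1, in replicate 2 and in the whole-series list, while 7.20% of the protein-coding genes of 3R were covered whole in both replicates. Cluster genes that share a domain are not separate cases in these counts. With no variation in coverage among the 6, they differed only in where they sat in a domain and in its score. The tin gene, placed at 17204699 to 17207692, lay closest to an outer edge, 1.55 kb inside the first domain in replicate 1 and 0.952 kb in replicate 2. The bap gene, at 17214602 to 17216171, lay 11.5 and 10.9 kb inside the same edge. The longest of the 6, lbl, spans 24.2 kb at 17235701 to 17259855. In replicate 1 its nearest domain edge was 32.6 kb away, and in replicate 2 its region began 0.328 kb beside it, at the break within the first domain. Its sister gene lbe, at 17267299 to 17272259, had 36.1 and 35.2 kb of marked sequence on the side of C15. The C15 gene, at 17325708 to 17338536, had 12.1 and 7.72 kb of marked sequence on its sides in replicate 1 and 11.8 and 7.47 kb in replicate 2. The slou gene, at 17374383 to 17382904, had 20.7 and 13.6 kb in replicate 1 and 20.5 and 13.4 kb in replicate 2. Apart from the break beside lbl, these margins thus changed by less than 1 kb between the replicates.

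The other genes of the stretch fell into covered and uncovered ones. Of the 8 other protein-coding genes touching it, Ugt49B2 (a UDP-glycosyltransferase), CG7907 and CG15498 were covered whole in both replicates. The small genes CheB93a and CheB93b, of a chemosensory protein family, were covered whole in replicate 1, but in replicate 2 to 0% and 34.2%, where the break in the first domain lay from 17232872 to 17235372. Fancm, a helicase of the Fanconi anaemia DNA repair pathway, was covered to 5.57% in replicate 1 and 0% in replicate 2. The values for sp3, listed with the synonym INPP5F, were 8.16% and 23.6%, and those for InR, the insulin receptor, 1.02% and 4.36%. The last of these reaches into the stretch from its distal side with one end only. All 6 non-coding RNA genes of the stretch were covered whole in both replicates, against 23.0% of the 796 non-coding and other genes of 3R. The ends of the stretch were set by domain edges of replicate 1, so high coverage within it was largely fixed in advance. The 6 also share domains and are not separate cases, so their count is not read as a result about non-coding genes. Of the 3 genes of the window outside the stretch, mod(mdg4) and lncRNA:Irar had no coverage in either replicate and aus had 0% and 5.97%. By base pairs, the 111 kb between genes was covered to 99.2% in replicate 1 and 96.8% in replicate 2, and the 27.02 kb in the other genes to 56.0% and 53.4%. These base pairs were counted within the stretch only, so the uncovered flanks of the window are left out. Within it the coverage was high between the genes as well as over the 6 homeobox genes, and low over a few of the other genes.

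**Figure D2:**
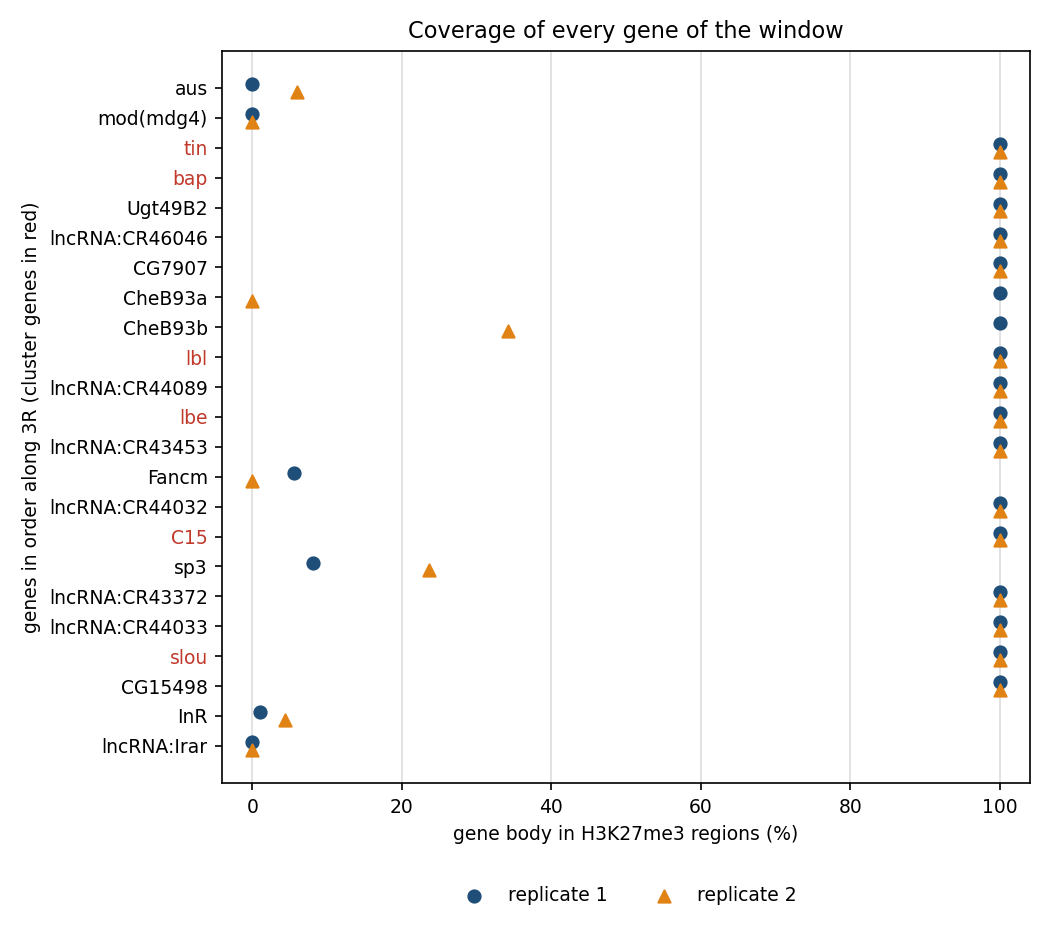
Share of each gene body in H3K27me3 regions (%), for the 23 genes touching the window in their order along 3R, with circles for replicate 1 and triangles for replicate 2. The 6 cluster genes (red) stand at 100% in both replicates, and mod(mdg4), Fancm, sp3 and InR stand at 23.6% or below.

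The edges of the 3 domains lay beside the ends of the uncovered genes. The first domain began 23 bp from the end of the table entry of mod(mdg4), a chromatin and insulator protein gene, in replicate 1 and 624 bp from it in replicate 2. It ended 284 bp inside Fancm in replicate 1 and 548 bp short of it in replicate 2. The C15 domain began 441 and 734 bp past the other end of Fancm and ended 397 and 643 bp before sp3. The slou domain began 625 and 387 bp inside sp3 and ended 500 and 306 bp inside InR. Fancm (5.12 kb) thus lay mostly in a gap of 5.28 kb in replicate 1 and wholly in one of 6.40 kb in replicate 2. Most of sp3 (7.67 kb) lay in a gap of 7.44 and 7.93 kb between the domains. In replicate 2 a narrow region of 1421 bp lay within the latter gap. Over the 6 edges and both replicates the median distance to the neighbour's end was 470.5 bp and the largest 734 bp. These neighbours were named after their positions were seen. Measured instead to the nearest end of any protein-coding gene, the window's wide-region edges had medians of 419 bp (6 edges, replicate 1) and 467.5 bp (8 edges, replicate 2). Edges of the other regions of at least 20 kb on 3R had medians of 791.5 bp (116 edges) and 2297.5 bp (122 edges). Within 1000 bp of a gene end lay all edges in the window, 50.9% and 37.7% of the other edges, and 28.4% of positions taken every 1000 bp along 3R.

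Both libraries placed the edges at nearly the same positions. The replicates differed by 601 and 832 bp at the edges of the first domain, by 293 and 246 bp at those of the C15 domain and by 238 and 194 bp at those of the slou domain. At each edge the position in the whole-series list fell between those of the replicates. The domain was narrower in replicate 2 at each of the 6 edges. For these 6 edges the median distance to the nearest like edge of replicate 2 was 269.5 bp, and all lay within 1000 bp. For the 116 edges of the other 58 wide regions of replicate 1 on 3R the median was 448 bp, the largest distance 22916 bp, and 67.2% lay within 1000 bp.

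The cluster window was covered to a higher share than the rest of the arm in each library, and its net share hardly moved between them. Regions took up 64.50% of the window in replicate 1 and 64.58% in replicate 2, a mean of 64.54% ± 0.0551 (SD, n = 2). The rest of 3R was covered to 28.2% and 40.0%, a mean of 34.1% ± 8.40 (SD, n = 2). Within each library the window exceeded the rest by 36.3 and 24.5 percentage points, a mean of 30.4 ± 8.34 (SD, n = 2). The excess was larger than its spread. With 2 differences the smallest p of an exact two-sided permutation test by sign flips is 0.5, and no p-value is given. The same limit holds for each comparison of the window with the rest of the arm. The covered length of the rest of 3R was 1.42 times as long in replicate 2 as in replicate 1, and that of the window 1.00 times. In the whole-series list the window stood at 65.4% and the rest at 44.1%.

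The replicates also marked the same sequence within the window. They had 175.7 kb in common there, or 97.3% of what replicate 1 and 97.2% of what replicate 2 covered. The Jaccard index (length in common divided by length in at least 1 replicate) was 94.6% in the window and 58.8% on the rest of 3R. The other regions of 3R were mostly narrow, with median widths of 2286 and 2236 bp. The index was not computed for other wide domains. The bithorax complex, a Hox gene complex on 3R, was covered to 98.7% in replicate 1 and 96.3% in replicate 2. There too the replicates must mark mostly the same sequence, so a high index is not particular to the cluster. Only 4905 bp of the window were covered in replicate 1 alone and 5123 bp in replicate 2 alone. The former lay at the domain edges and at the break in the first domain. The latter were the narrow, low-scoring regions of replicate 2. The 2 lengths nearly offset each other, so the almost equal shares of the window are a net result.

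When 3R was laid out in 99 tiles of 280 kb starting from the window, the window ranked 12 by covered share in replicate 1, 17 in replicate 2 and 22 in the whole-series list. The other 98 tiles had a median of 21.7% in replicate 1 and 36.9% in replicate 2, with highest values of 98.6% and 95.6%. The window was thus well covered but not among the fullest tiles, as its flanks beyond the stretch were nearly free of regions. Its net difference between the replicates, 0.0779 percentage points, was smaller than in any of the other 98 tiles, with losses in the domains offset by narrow regions. Those had a median of 11.6 points, ran from -7.27 to 35.8, and were higher in replicate 2 in 93 tiles. Some other well-covered tiles also moved little, as those from 11279979 (68.2% and 67.7%) and 12679984 (58.1% and 58.8%). Others moved more, as that from 24160025 (73.6% and 84.9%). A steady share is thus not particular to the window.

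**Figure D3:**
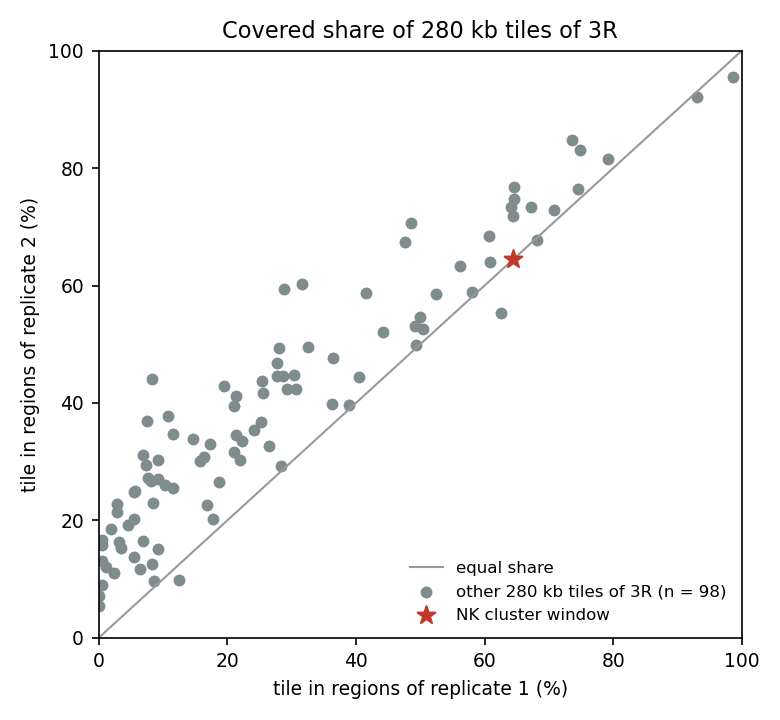
Covered share (%) of 280 kb tiles of 3R in replicate 1 (horizontal axis) and replicate 2 (vertical axis), with the line of equal shares. Most of the 98 other tiles (grey) lie above the line, and the NK cluster window (red star) lies on it at 64.5% in replicate 1 and 64.6% in replicate 2.

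The nearest region of at least 10 kb outside the stretch lay 649.9 kb away on the proximal side in replicate 1 and 112.8 kb away in replicate 2. On the distal side it lay 1257 and 1225 kb away. In the whole-series list it was nearer on the distal side, at 328.0 kb, and lay 334.7 kb away on the proximal side. The closest region of any width was 295.3 and 34.6 kb away on the proximal side and 149.6 and 2.63 kb on the distal side. The small distances in replicate 2 were to narrow regions that replicate 1 did not list.

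Scores over the cluster were near the top of the arm. The score is the authors' value for each region, the sources used here give no scale for it, and it is compared only within a list. In replicate 1 the domain of tin, bap, lbl and lbe scored 2.19, that of C15 2.20 and that of slou 2.16, ranks 6, 5 and 9 among the 1376 regions of 3R. In replicate 2 the region of tin and bap scored 2.11 (rank 15 of 2575), that of lbl and lbe 2.23 (rank 8), that of C15 2.28 (rank 6) and that of slou 2.25 (rank 7). C15 had the highest score of the cluster in all 3 lists, with 2.23 in the whole-series list, while the lowest was slou in replicate 1 and the tin and bap region in replicate 2. The order of the other genes therefore did not hold between the replicates. Within each library the C15 domain exceeded the slou domain by 0.036 and 0.031, a mean of 0.033 ± 0.0040 (SD, n = 2). It exceeded the first domain by 0.0088 and 0.079, a mean of 0.044 ± 0.050 (SD, n = 2), which is less than its spread.

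Weighted by length, the mean score of the window's regions was 2.19 in replicate 1 and 2.17 in replicate 2, and that of the other regions of 3R 1.19 and 1.05. The difference was 1.06 ± 0.0916 (SD, n = 2), higher in the window in both libraries. All other regions of 3R, mostly narrow, had a median score of 0.67 in replicate 1 and 0.64 in replicate 2, so the wide ones were also compared with each other. The other regions of 3R of at least 20 kb had a median score of 1.66 in replicate 1 (58 regions) and 1.64 in replicate 2 (61 regions), below each wide region of the window. Of them, 4 in replicate 1 and 4 in replicate 2 scored above the highest wide region of the window. Above its lowest wide region scored 5 in replicate 1 and 6 in replicate 2. Those found in both lists lay over laf and opa, over Obp99b, Obp99c, Obp99d, Dup99B and dmrt99B, over ND-20L, CG7567, CG11470, CG31041 and the homeobox gene Dr (Drop), and over fkh. In replicate 1 only, a region over Hmx, an NK-like homeobox gene, passed the lowest of the cluster with 2.23. In replicate 2 only, regions over Ptx1, CG15549 and CG15550 (2.29) and over KP78a and KP78b (2.16) did so. Among the protein-coding genes of 3R covered whole, 324 in replicate 1 (9.57% of the 3387) and 467 in replicate 2 (13.8%), the 6 cluster genes scored above 91.7% to 95.1% of them in replicate 1 and above 92.7% to 96.8% in replicate 2. A gene takes the score of its region, so tin, bap, lbl and lbe all carry 2.19 in replicate 1. The 6 are therefore not separate cases, and they are themselves among the genes covered whole.

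**Figure D4:**
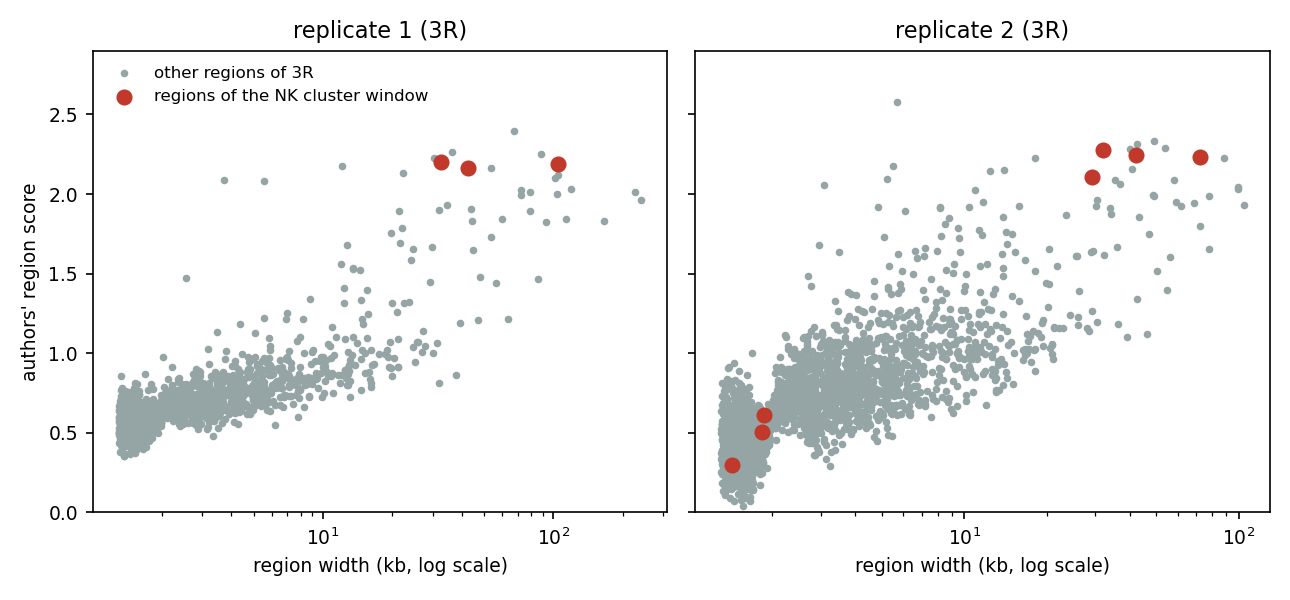
Authors' region score (vertical axis) against region width in kb (horizontal axis, log scale) for the regions of 3R in replicate 1 (left) and replicate 2 (right), with regions of the NK cluster window in red. The wide regions of the window score from 2.11 to 2.28, and 3 narrow ones in replicate 2 score from 0.30 to 0.61.

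The remaining regions of the window were narrow and weak. Replicate 2 listed 1868 bp at 17167260 to 17169127 inside aus (score 0.61), 1421 bp at 17351488 to 17352908 inside sp3 (score 0.30) and 1834 bp at 17398909 to 17400742 inside InR (score 0.51). Replicate 1 listed none of the 3. The whole-series list held narrow regions over the latter 2 places only, with scores of 0.34 and 0.40. The region in sp3 scored above 5.05% of all regions of replicate 2, that in InR above 22.7% and that in aus above 38.2%. The larger coverage of sp3 and InR in replicate 2 came mainly from these regions.

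The cluster was set beside the Hox complexes of the same arm, which also hold homeobox genes in a row. From tin to slou, a span of 178.2 kb, 92.9% was covered in replicate 1 and 91.4% in replicate 2, in 3 and 5 regions. The Antennapedia complex from lab to Antp (337.8 kb) was covered to 98.4% and 95.7% in 3 and 14 regions. The bithorax complex from Ubx to Abd-B (315.6 kb) was covered to 98.7% and 96.3% in 2 and 9 regions. The NK cluster thus had the lowest share of the 3, with 12.7 and 15.4 kb uncovered, mostly over Fancm and sp3. Its length-weighted score was the highest in both libraries, 2.19 and 2.21, against 1.89 and 1.71 in the Antennapedia complex and 2.04 and 1.95 in the bithorax complex. These are orders within 2 libraries, with no test.

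Other genes of 3R were grouped to show how common full coverage was. Of 23 other homeobox genes on the arm, 15 had both ends in regions of both replicates and the median body coverage (mean of the replicates) was 99.3%, against 0% for all 3387 protein-coding genes. Among the 15, lab, pb, zen2, zen, bcd, Dfd, ftz and Antp belong to the Antennapedia complex. Neighbours that share a domain are not separate cases. Dr and Hmx, both NK-like, were covered whole in both replicates, but NK7.1, another NK-class gene, was covered to 7.83% and 15.9% and btn (buttonless) to 0% in both. Of 8 other genes grouped here as regulators of mesoderm and heart, 3 had both ends in regions. So did 8.59% of all protein-coding genes of 3R. The median coverage of the 8 was 97.2%. The 3 were srp, GATAe and pnr, each in 1 region of the same score (1.84) in replicate 1, so they are not separate cases. The count of 3 became 5 when regions under 5000 bp apart were joined and 6 when genes were moved by 1000 bp. The share of all protein-coding genes under these settings was not computed. The GATA factor genes srp and GATAe were covered whole in both replicates, while nau, the fly relative of MyoD, had no coverage in either and jumu had 0% and 13.6%.

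Of 11 neural and photoreceptor genes, none had both ends in regions of both replicates, but 3 did without replicate 1 and 3 in the whole-series list. Over all protein-coding genes the share was 8.59% for both replicates, and it was not computed for the other settings. Replicate 2 and the whole-series list cover 40.3% and 44.4% of 3R, against 28.5% in replicate 1. With 11 genes, these counts are not read as a result about the list. The median coverage of the 11 genes was 0% in replicate 1 and 37.3% in replicate 2. VAChT, the vesicular acetylcholine transporter, was covered to 46.8% and 71.6%, and the rhodopsin gene Rh3 to 0% and 100%, while Atpalpha, the sodium pump, had 0% in both. None of 23 ribosomal protein genes had both ends in regions of both replicates, and 21 were free of regions in both, as were 58.5% of the protein-coding genes of 3R. The highest of them, RpL10Aa, was covered to 99.9% in replicate 1 and 0% in replicate 2. Covered whole in both replicates were all 6 genes of the NK cluster, 10 of the 23 other homeobox genes and 2 of the 8 genes grouped under mesoderm and heart, against 7.20% of the 3387 protein-coding genes. The 6 cluster genes share 3 domains and are not separate cases either.

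**Figure D5:**
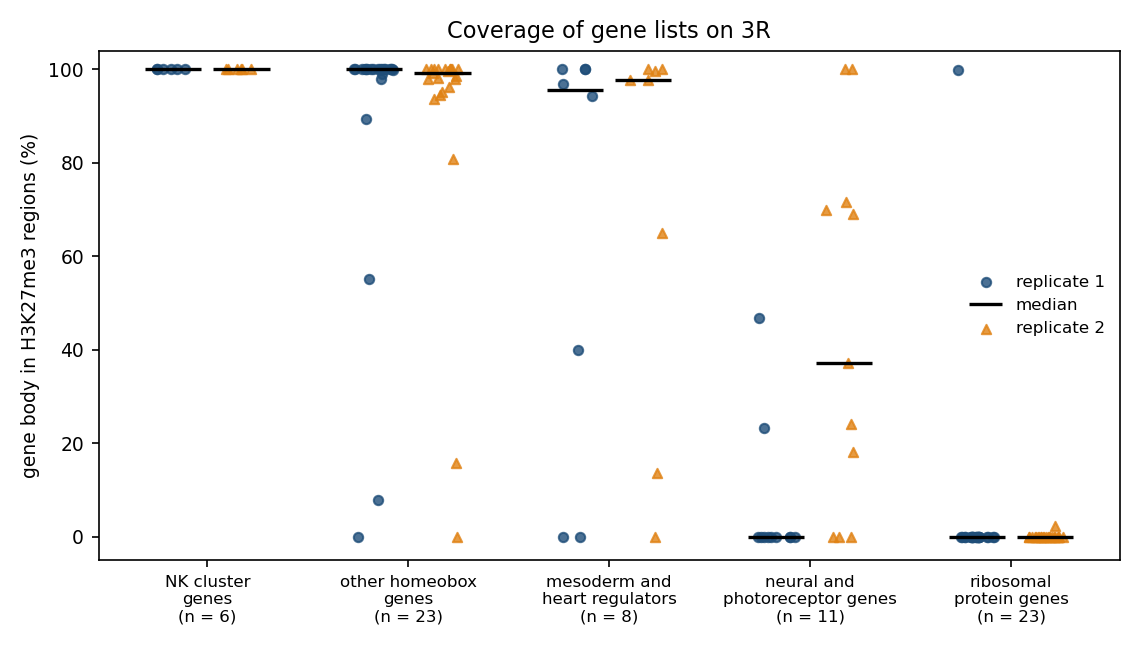
Share of the gene body in H3K27me3 regions (%) for gene lists of 3R, each gene as a circle (replicate 1) and a triangle (replicate 2), with black bars at the medians. The 6 NK cluster genes all stand at 100%, and the medians of the ribosomal protein genes stand at 0%.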

How the data were processed

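Bowtie 0.12.7 was used for alignment according to the submitters' processing notes, and positions are on FlyBase release 5, per the file headers. The sources used here name no region caller or threshold and no scale for the deposited score, and do not say if pooled reads or merged calls made the whole-series list. Each ChIP library was called against its own input, per the labels. A list hides signal below the authors' threshold and grows with depth, which is unknown.

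The 1 region marked as depleted in replicate 2 was left out. Coverage was counted by base in Python 3.11.15 (pandas 2.3.3, numpy 2.4.6) and checked on simulated regions. Genes came from a RefSeq table of release 6 that pairs symbols with positions (4203 entries on 3R, of which 4183 were placed). It has no strand, so the planned rule on gene starts was replaced by both ends of the gene. Named genes are the 6 cluster genes, neighbours between them or at region edges, and the highest and lowest of each list; the genes of other wide regions, the narrow regions and the edge comparisons were chosen after their values were seen. The members, lists and tests were chosen with earlier results of these data known. Alternatives tried were other lists, score and width limits, joined regions, single replicates, window edges and shifted gene positions.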

Additional observations from a re-analysis of the deposited data

How the results depend on the processing

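The 6 cluster genes kept both ends in regions in the whole-series list. They also did under each change of score limit, width, joining, list length and replicate. These latter changes could not have lowered the count, as the genes lie in wide, high-scoring regions of both replicates. Moving the genes by up to 5000 bp left at least 4 with both ends in regions. Their covered share was 98.00% with 2000 bp added on either side, and 99.3% and 92.3% with genes moved by -1000 and -5000 bp. The window's share was 63.6% with the lower-scoring regions of each list (under its median) left out, with regions of at least 2000 bp or with equal numbers by score, as these limits removed the narrow regions, and the Jaccard index was then 97.3%. Joined at 5000 bp they were 65.6% and 94.5%. The span from the first to the last cluster gene gave 92.1%, an excess of 58.1 points over the rest of 3R. The whole-series list gave 65.4%, an excess of 21.2 points and a score difference of 1.24. The score difference was 0.92 without the lower-scoring regions and 1.49 with medians over regions. Of the genes grouped under mesoderm and heart, 5 had both ends in regions after joining at 5000 bp and 6 with genes moved by 1000 bp. Of the neural genes 3 had in the whole-series list, and 0 to 3 in single replicates. Moving genes by 5000 bp gave 2 ribosomal protein genes. The share of all protein-coding genes was not computed under these settings, so these counts are not read as results about the lists. Where no construction shows it, the cause was not tested. Unknown depth limits every comparison of list lengths. No paired analysis was possible because, for pairs of ChIP and input, region lists came for the ChIP libraries alone; the window and the rest of 3R were compared within each library.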

Other observations

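Gaps of 2 to 20 kb that were free of regions in both replicates and lay between regions of at least 20 kb of replicate 1 numbered 7 on 3R, a count made after the gaps of the cluster were seen. The 2 gaps of the NK cluster lay to 91.7% (Fancm) and 92.4% (sp3) in protein-coding genes, and 94.4% of Fancm and 63.1% of sp3 lay in them. Of the other 5 gaps, 3 touched no protein-coding gene. Another touched 1.06% of Scr and had 7.23% of its length in genes, and the last held 31.7% of Bili and had 81.0% in genes. Over the whole arm, 71.0% of the sequence lay in protein-coding genes. With 7 gaps this is a description of these lists only.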
